A study of Mus musculus with 4 samples.

Results

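The cytochrome P450 genes are the 94 protein-coding genes of the GENCODE vM21 annotation whose symbol is Cyp followed by a family number, a subfamily letter and a gene number. They were chosen by name from 21951 protein-coding genes, with no measured value used. Regions of transcription initiation at these genes were compared between liver and yolk sac from mouse embryos at E14.5, mid-gestation, by PRO-seq, a nuclear run-on assay that maps engaged RNA polymerase. Each tissue had 2 libraries, and each library was made from the tissue of 6 pooled embryos. In every library the mothers were C57BL/6J. The fathers were of a mixed C57BL/6J and CAST/EiJ background and had been selected for CAST/EiJ alleles at Dlk1/Gtl2 on chromosome 12. The sample labels spell the first strain C57BL/6h. The cross was the same in both tissues, so the groups differ by tissue alone in the labels. Nothing in the labels says whether the pools of replicates 1 and 2 came from separate litters, and the spread between replicates may be partly technical.

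Cytochrome P450 enzymes are haem proteins that insert oxygen into small hydrophobic molecules. Families 1 to 3 oxidise drugs, pollutants and some endogenous lipids, and many of their genes become active in hepatocytes only around and after birth. Family 4 hydroxylates fatty acids and eicosanoids, and smaller families make or break down bile acids, vitamin D, retinoic acid and steroid hormones. The yolk sac endoderm shares many absorptive and secretory functions with the liver, and at mid-gestation the liver is also the main site of red cell formation.

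The values are dREG peaks, intervals classed from run-on reads as places where transcription starts. A gene was called in a library when a peak overlapped, by at least 1 bp, the 500 bp either side of any of its annotated start sites, and this is named a promoter peak below. Each peak carries the authors' score, which has no unit. The score was used only as a percentile rank within its own list, where 100 is the highest score of the list. Positions are on mm10, which is GRCm38. Replicates 1 and 2 gave 24863 and 24333 peaks for liver and 50525 and 43055 for yolk sac. The depth of each library is not known. A longer list can contain more genes for that reason alone, so the main counts are given also for lists of equal length, made of the 24333 highest-scoring peaks of every library. With 2 libraries against 2 the exact two-sided permutation test has 6 assignments and cannot give a p below 0.333, so no tissue difference could pass a conventional threshold. Each difference is instead compared with how far the replicates of a tissue lay apart.

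Of the 8 P450 genes with a promoter peak in both libraries of 1 tissue and in neither library of the other, 7 had a RefSeq promoter window on GRCm38.p6, from 250 bases before to 50 bases after the start. These sequences are printed because they are the start regions at which the tissues differed. Cyp24a1 is the eighth gene. In all, 73 of the 94 genes matched such an entry. The letters in capitals mark matches to 5 short motifs searched on both strands: TATAAA (the TATA box), GCGTG (the core bound by the aryl hydrocarbon receptor), AGGTCA and AGTTCA (nuclear receptor cores) and AGATAA (bound by GATA factors). AGGTCA and AGTTCA were also searched as direct repeats with 5 bases between them, the spacing of a retinoic acid receptor element. A match on the opposite strand appears in the printed strand as its reverse complement, so TTTATA marks TATAAA. Positions of matches are counted from the RefSeq start, with negative values before it.

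The liver-only genes were Cyp2d10, at chr15:82407145-82407444 on the minus strand, and Cyp4f15, at chr17:32685409-32685708 on the plus strand.
Cyp2d10: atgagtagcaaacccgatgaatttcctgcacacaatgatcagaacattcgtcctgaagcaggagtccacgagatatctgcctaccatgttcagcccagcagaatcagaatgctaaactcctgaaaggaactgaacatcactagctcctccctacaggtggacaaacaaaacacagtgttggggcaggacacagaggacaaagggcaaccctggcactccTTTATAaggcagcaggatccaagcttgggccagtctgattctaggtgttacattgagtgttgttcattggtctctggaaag
Cyp4f15: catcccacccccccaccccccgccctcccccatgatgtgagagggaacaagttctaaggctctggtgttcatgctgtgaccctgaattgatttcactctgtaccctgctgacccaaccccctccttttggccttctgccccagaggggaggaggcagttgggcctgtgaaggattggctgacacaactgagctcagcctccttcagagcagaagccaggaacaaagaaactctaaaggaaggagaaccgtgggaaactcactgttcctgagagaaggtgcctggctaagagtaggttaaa

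Their closest counterparts among the yolk-sac-only genes by subfamily were Cyp2d26, at chr15:82794196-82794495 on the minus strand, and Cyp4f16, at chr17:32536307-32536606 on the plus strand. The Cyp4f16 peak overlapped the printed window in yolk sac replicate 1 only, since the peak of replicate 2 began further into the gene.
Cyp2d26: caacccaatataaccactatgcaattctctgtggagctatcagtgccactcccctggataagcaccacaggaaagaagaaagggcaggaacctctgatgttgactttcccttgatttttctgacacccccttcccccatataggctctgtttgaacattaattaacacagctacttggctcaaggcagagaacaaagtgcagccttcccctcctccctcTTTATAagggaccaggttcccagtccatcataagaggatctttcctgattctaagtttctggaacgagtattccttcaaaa
Cyp4f16: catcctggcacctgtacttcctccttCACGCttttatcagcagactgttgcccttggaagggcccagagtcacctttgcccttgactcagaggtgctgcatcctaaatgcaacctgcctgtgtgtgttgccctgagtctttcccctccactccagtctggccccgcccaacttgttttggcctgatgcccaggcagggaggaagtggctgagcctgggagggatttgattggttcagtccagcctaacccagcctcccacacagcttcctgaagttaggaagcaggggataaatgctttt

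The other yolk-sac-only genes with an entry were Cyp11a1, at chr9:58014702-58015001 on the plus strand, Cyp1b1, at chr17:79715012-79715311 on the minus strand, and Cyp2s1, at chr7:25816476-25816775 on the minus strand.
Cyp11a1: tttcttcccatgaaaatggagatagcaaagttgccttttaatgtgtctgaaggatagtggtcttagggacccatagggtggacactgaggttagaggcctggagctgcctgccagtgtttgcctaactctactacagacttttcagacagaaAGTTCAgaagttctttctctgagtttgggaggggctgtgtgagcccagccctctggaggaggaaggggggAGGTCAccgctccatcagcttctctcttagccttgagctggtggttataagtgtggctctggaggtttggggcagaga
Cyp1b1: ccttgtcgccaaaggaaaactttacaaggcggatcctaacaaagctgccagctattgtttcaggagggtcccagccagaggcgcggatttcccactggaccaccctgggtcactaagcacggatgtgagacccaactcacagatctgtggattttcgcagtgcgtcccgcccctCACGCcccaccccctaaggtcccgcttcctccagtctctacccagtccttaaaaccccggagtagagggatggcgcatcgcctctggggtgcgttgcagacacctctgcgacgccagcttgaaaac
Cyp2s1: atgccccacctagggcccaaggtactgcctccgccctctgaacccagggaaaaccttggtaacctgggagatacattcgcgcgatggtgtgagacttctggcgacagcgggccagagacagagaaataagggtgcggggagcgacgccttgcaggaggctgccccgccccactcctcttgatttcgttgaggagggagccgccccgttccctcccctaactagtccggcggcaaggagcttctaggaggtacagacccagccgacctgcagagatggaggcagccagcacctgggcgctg

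Cyp2d10 and Cyp2d26 both held TATAAA on the opposite strand at position -31. Cyp11a1 held AGGTCA at -28 and AGTTCA at -98, both on the gene's strand. Cyp1b1 and Cyp4f16 held GCGTG on the opposite strand, at -76 and -224. Cyp2s1 and Cyp4f15 held no match. These motifs are short and common: TATAAA was in 13.6% of all 32851 RefSeq promoter windows, GCGTG in 32.4%, AGGTCA in 16.3%, AGTTCA in 14.0% and AGATAA in 11.2%. The P450 genes had 83 windows, of which TATAAA was in 32, GCGTG in 17, AGGTCA in 22, AGTTCA in 13 and AGATAA in 17. The direct repeat was in 0.0396% of all windows and in 1 P450 window, that of Cyp26a1, where it lay at -32 on the opposite strand. A match is a run of letters and not evidence of binding.

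P450 promoters were called less often than those of other coding genes in both tissues, and most of the family had no promoter peak at all. Of the 94 genes, 29 had a promoter peak in at least 1 library, against 65.8% of all protein-coding genes, and 65 (69.1%) had none, against 34.2%. In liver, 16 P450 genes were called in replicate 1 and 16 in replicate 2. In yolk sac, 25 and 22 were called. Both yolk sac libraries thus lay above both liver libraries, with a liver mean of 16 ± 0 genes and a yolk sac mean of 23.5 ± 2.12 (SD, n = 2; exact permutation p = 0.333). As shares these were 17.02%, 17.02%, 26.6% and 23.4% of the P450 genes, where the same libraries called 56.1%, 57.9%, 63.8% and 62.4% of all coding genes. The direction turned in lists of equal length, in which 16 and 16 genes were called in liver and 13 and 14 in yolk sac, a difference of -2.5 genes (exact permutation p = 0.333). Those lists called 55.9%, 57.9%, 53.2% and 56.6% of all coding genes.

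By pattern, 11 P450 genes were called in all 4 libraries (11.7%, against a background of 53.8%), 2 were liver-only (2.13%, background 1.01%) and 6 were yolk-sac-only (6.38%, background 5.25%). The remaining 10 genes with a peak had other combinations (10.6%, background 5.73%). The yolk-sac-only share was therefore close to that of all coding genes. The liver-only share, which rests on 2 genes, and the share of other combinations were above their backgrounds. In percentage points the widest gaps lay in the genes called everywhere and nowhere. In lists of equal length the yolk-sac-only genes fell from 6 to 2, Cyp11a1 and Cyp2s1, while both liver-only genes kept their pattern. The backgrounds were then 2.61% for yolk-sac-only and 3.01% for liver-only genes.

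Genes of sterol, bile acid and vitamin D metabolism were called most fully of the P450 groups with more than 1 gene. Of these 9 genes, 7 had a promoter peak in at least 1 library, with 4 and 5 called in the liver libraries and 6 and 6 in the yolk sac libraries (4.5 ± 0.707 and 6 ± 0, SD, n = 2; exact permutation p = 0.333). In lists of equal length the counts were 4 and 5 in liver and 4 and 5 in yolk sac, with no difference. The share of the group called in all 4 libraries was 33.3%, against 53.8% of all coding genes. The share called in none was 22.2%, against 34.2%. Cyp27a1 (chromosome 1, 74713574 to 74737892), the mitochondrial sterol hydroxylase of bile acid synthesis, had the highest-ranked promoter peaks of the family in liver replicates 1 and 2, at percentiles 95.0 and 96.1, and stood at 98.3 and 98.9 in yolk sac. Cyp2r1 (chromosome 7, 114549682 to 114562972), a hydroxylase that performs the opening step of vitamin D activation, stood at 70.3 and 86.6 in liver and at 88.0 and 87.7 in yolk sac. Cyp39a1 (chromosome 17, 43667425 to 43751431), an oxysterol hydroxylase, stood at 26.3 and 44.4 in liver and at 58.0 and 50.8 in yolk sac. These 3 genes were called in all 4 libraries. The Cyp39a1 peak also covered a start of the divergent gene Slc25a27. Both yolk sac lists, but neither liver list, held a further Cyp39a1 peak at an internal start about 64 kb into the gene, which did not touch another gene's start.

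Cyp7b1 (chromosome 3, 18071950 to 18243338), the oxysterol hydroxylase of the alternative bile acid pathway, was called in both yolk sac lists, at percentiles 51.0 and 52.7, and in liver replicate 2 at 21.2, but not in liver replicate 1. Cyp46a1 (chromosome 12, 108334381 to 108362234), the cholesterol hydroxylase best known from neurons, had the same pattern, at 55.8 and 73.5 in yolk sac and 31.2 in liver replicate 2. The liver replicates thus disagreed on both genes. Cyp8b1 (chromosome 9, 121914356 to 121916305), the sterol hydroxylase needed for cholic acid, was called in liver replicate 1 alone, at percentile 23.5. Cyp7a1, the rate-limiting enzyme of the classical bile acid pathway, had no promoter peak in any list, and its nearest peak edges lay 18018 and 61368 bp away in liver and 53179 and 53429 bp away in yolk sac.

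The vitamin D genes differed among themselves. Cyp24a1 (chromosome 2, 170482708 to 170497145), which inactivates the vitamin D hormone, was yolk-sac-only, with a peak of 1502 bp at percentile 34.5 in replicate 1 and of 2102 bp at 41.3 in replicate 2. The peak ran from 170496801 to 170498302 in replicate 1. It was shared with an annotated start of Pfdn4, and the call is lost when peaks shared with another gene are left out. The call is also lost in lists of equal length. The 25 kb below the 3′ end of Cyp24a1 held 6 peaks in yolk sac replicate 1 and 6 in replicate 2, at percentiles from 20.5 to 77.4 and from 1.17 to 81.0, and 0 in either liver list. Of these yolk sac peaks, 3 and 3 were left in lists of equal length. Within 50 kb either side of the gene, and away from annotated starts, liver had 1 and 1 peaks and yolk sac 9 and 8, or 3 and 3 in yolk sac with lists of equal length. Cyp27b1, which makes the vitamin D hormone, had no promoter peak, and its nearest peak edge lay between 4298 and 5698 bp from a start in the 4 lists.

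Of the 6 steroid hormone genes, 0 were called in either liver list, 2 in yolk sac replicate 1 and 1 in replicate 2 (exact permutation p = 0.333). The counts were 0 and 0 against 1 and 1 in lists of equal length. With all peaks, 66.7% of the group was called in no library, against 34.2% of all coding genes. The gene called in both yolk sac lists was Cyp11a1 (chromosome 9, 58006411 to 58027023), the side-chain cleavage enzyme that begins steroid synthesis from cholesterol. Its yolk sac peak was the widest promoter peak of any P450 gene, at 3202 bp and percentile 88.5 in replicate 1, and it measured 2302 bp at percentile 92.9 in replicate 2. It ran from 58014251 to 58017452 in replicate 1 and so lay at starts inside the annotated span, more than 7 kb from its 5′ end. The call held in lists of equal length and in the higher-scoring 50% of each list, and it was lost in replicate 1 alone when the midpoint of the peak, not its edge, had to fall in the window. Further yolk-sac-only peaks lay in the gene body, from 58011001 to 58011702 and from 58023051 to 58024002 in introns and from 58021451 to 58022152 over an exon. Within 50 kb either side of Cyp11a1, peaks away from starts numbered 0 and 0 in liver and 7 and 5 in yolk sac, where the mean over all coding genes was 1.31, 1.20, 3.05 and 2.51 in the same order of libraries. With equal list lengths there were 0 and 0 such peaks near Cyp11a1 in liver and 0 and 1 in yolk sac, so the difference was almost lost.

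Cyp21a1, a steroid hydroxylase of the adrenal gland, had a peak of 102 bp at percentile 4.71 in yolk sac replicate 1 only, the smallest width any list holds. Cyp11b1, Cyp11b2, Cyp17a1 and Cyp19a1, the later enzymes of corticoid, androgen and oestrogen synthesis, had no promoter peak in any library. The same held for Star, which carries cholesterol into mitochondria, and for Nr5a1, which encodes the steroidogenic nuclear receptor SF-1. Fdx1 and Fdxr, which pass electrons to Cyp11a1 and other mitochondrial P450 enzymes, were called in all 4 libraries.

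The retinoid group of Cyp26a1, Cyp26b1 and Cyp26c1, which break down retinoic acid, had 1 call. The share called in none was 66.7%, against 34.2% of all coding genes. Cyp26b1 had a peak of 252 bp at percentile 7.13 in yolk sac replicate 1, at an internal start, and no promoter peak in the other 3 libraries (exact permutation p = 1). A gene body peak of 102 bp at percentile 12.5 was called in yolk sac replicate 2, from 84583551 to 84583652, and in lists of equal length the retinoid group had no promoter call. Cyp26a1 and Cyp26c1 lie side by side on chromosome 19, and no peak edge lay nearer than 82679 bp to either. The retinoic acid receptor genes Rara, Rarb and Rarg were called in all 4 libraries.

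Drug-metabolising genes made up most of the uncalled members, and they are also 58 of the 94 P450 genes. Of these 58 genes, in families 1 to 3 other than Cyp2r1, 47 had no promoter peak in any library and 11 had at least 1. The share called in none was 81.0%, against 34.2% of all coding genes and 69.1% of all P450 genes. In liver 6 and 5 were called and in yolk sac 9 and 9 (5.5 ± 0.707 and 9 ± 0, SD, n = 2; exact permutation p = 0.333). The order was reversed in lists of equal length, with 6 and 5 in liver and 4 and 3 in yolk sac. None of the 4 Cyp2a and 5 Cyp2b genes was called, nor were Cyp2e1, Cyp1a2 and Cyp3a11, which are prominent enzymes of the adult liver. Of 15 Cyp2c genes only Cyp2c70 had a promoter peak, and of 7 Cyp3a genes only Cyp3a13.

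Cyp2d22 (chromosome 15, 82370527 to 82380260), Cyp2u1 (chromosome 3, 131288441 to 131303227) and Cyp2j6 (chromosome 4, 96516138 to 96553661) were the drug-group genes called in all 4 libraries. Cyp2d22 stood at percentiles 84.2 and 81.0 in liver and 96.1 and 97.0 in yolk sac. Cyp2u1, a hydroxylase of long-chain fatty acids, stood at 88.4 and 40.0 in liver and 88.2 and 92.1 in yolk sac, and its peak was shared with an antisense transcript, 4930534D22Rik. Since the peaks carry no strand, initiation of Cyp2u1 and of that transcript cannot be told apart. Cyp2j6, an arachidonic acid epoxygenase, ranked low in liver, at 11.5 and 23.2, and stood at 72.0 and 38.9 in yolk sac.

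Cyp2d10 (chromosome 15, 82402846 to 82407195) was liver-only, with a peak of 1302 bp at percentile 64.0 in replicate 1 and of 752 bp at 25.2 in replicate 2. The start of the small RNA gene Gm27331 lies in the same peak, and the call is lost when shared peaks are left out. Cyp2d26 (chromosome 15, 82790101 to 82794294), in the same gene cluster, was yolk-sac-only, with peaks of 952 and 652 bp at percentiles 32.3 and 23.4. In the transcripts of Cyp2d10, 49.5% of 30-base words also occur in transcripts of other Cyp-named genes, and in those of Cyp2d26 15.4%, so reads at these genes can be hard to place. Cyp2d10 and Cyp2d26 thus had opposite tissue patterns in the full lists. In lists of equal length Cyp2d26 was not called, while Cyp2d10 stayed liver-only. Peaks that overlapped any part of the Cyp2d cluster numbered 4 and 4 in liver against 5 and 4 in yolk sac. At equal list length these numbers were 4 and 4 against 2 and 1.

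Cyp1b1 (chromosome 17, 79701537 to 79715061) and Cyp2s1 (chromosome 7, 25802475 to 25816913) are both known targets of the aryl hydrocarbon receptor and are active mostly outside the liver. Cyp1b1 was yolk-sac-only, with a peak of 2652 bp at percentile 45.98 in replicate 1 and of 1202 bp at 36.2 in replicate 2, and it was not called in lists of equal length. Cyp2s1 was also yolk-sac-only, at 74.3 and 60.3 with peaks of 1652 and 1352 bp, and it held in lists of equal length and in the higher-scoring 50%. The start of the non-coding gene Gm26707 lies near the Cyp2s1 peak. The receptor gene Ahr, its partner Arnt and its repressor Ahrr were called in all 4 libraries. Within 50 kb of Cyp2s1, peaks away from starts numbered 3 and 4 in liver against 9 and 9 in yolk sac, and 3 and 4 against 6 and 4 in lists of equal length. The remaining tissue-only genes had no such excess or a small one in the full lists. Cyp2d26 and Cyp4f15 had 0 such peaks in every library, and Cyp1b1 had 0 and 0 against 1 and 3. Cyp4f16 had 1 and 2 against 1 and 1, and Cyp2d10 3 and 3 against 4 and 4.

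The remaining drug-group calls were uneven between replicates. Cyp2c70, which makes the muricholic acids of mice, had peaks of 102 bp at percentile 4.09 in liver replicate 1 and of 502 and 102 bp at 18.2 and 4.998 in yolk sac. Cyp3a13 stood at 2.15 in liver replicate 1 and at 17.9 and 20.5 in yolk sac, with no call in liver replicate 2. Cyp2j9 was called in liver replicate 2 at 42.9 and in yolk sac replicate 1 at 35.9. Cyp2t4 was called in yolk sac replicate 2 alone, at 42.7. No tissue pattern can be read from these 4 genes.

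In the full lists the fatty acid group did not differ between tissues beyond its replicate spread. Of 17 family 4 genes, 5 and 5 were called in liver and 6 and 5 in yolk sac (5 ± 0 and 5.5 ± 0.707, SD, n = 2; exact permutation p = 1), and 10 were called nowhere. The share called in none was 58.8%, against 34.2% of all coding genes. In lists of equal length the counts were 5 and 5 against 3 and 4. That difference of -1.5 was larger than the replicate spread (5 ± 0 and 3.5 ± 0.707, SD, n = 2; exact permutation p = 0.333). The calls lay in the Cyp4f subfamily, with 6 of 9 genes, and in Cyp4v3, while none of the 5 Cyp4a genes, Cyp4b1 or Cyp4x1 was called. Cyp4v3 (chromosome 8, 45304944 to 45333216) stood at percentiles 54.1 and 64.6 in liver and 62.0 and 80.6 in yolk sac. Cyp4f17 (chromosome 17, 32506050 to 32530143) stood at 63.0 and 45.2 and at 75.2 and 67.2.

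Cyp4f13 (chromosome 17, 32924688 to 32947402) was called in all 4 libraries both at its 5′ end and at the start of a short transcript near its 3′ end. The stronger of these peaks was the 3′ one in liver replicate 1 (percentile 79.4), liver replicate 2 (61.9) and yolk sac replicate 2 (64.4), and the 5′ one in yolk sac replicate 1 (57.6). Cyp4f39 (chromosome 17, 32452723 to 32493320), which hydroxylates the very long fatty acids of skin ceramides, was called in all 4 libraries only at a short transcript near its 3′ end, at 27.6 and 15.1 in liver and 44.0 and 50.9 in yolk sac. When only starts of protein-coding transcripts were used, it was called in yolk sac replicate 1 alone, at an internal start near 32468462 with a peak at percentile 24.8.

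Within the Cyp4f cluster on chromosome 17, Cyp4f15 and Cyp4f16 had opposite patterns. Cyp4f15 (32685627 to 32703352) was liver-only, with peaks of 752 and 802 bp at percentiles 37.9 and 43.0. Cyp4f16 (32536558 to 32551798) was yolk-sac-only, with peaks of 452 and 252 bp at 40.0 and 18.2, and it was not called in lists of equal length. Cyp4f37 was called in yolk sac replicate 1 alone, at 12.0. Shared 30-base words made up 7.75% of the transcripts of Cyp4f15 and 27.3% of those of Cyp4f16. The orphan enzyme Cyp20a1 (chromosome 1, 60343323 to 60388060), the only gene outside these groups, was called in all 4 libraries at percentiles 92.1 and 82.2 in liver and 89.6 and 96.1 in yolk sac.

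**Figure D1:**
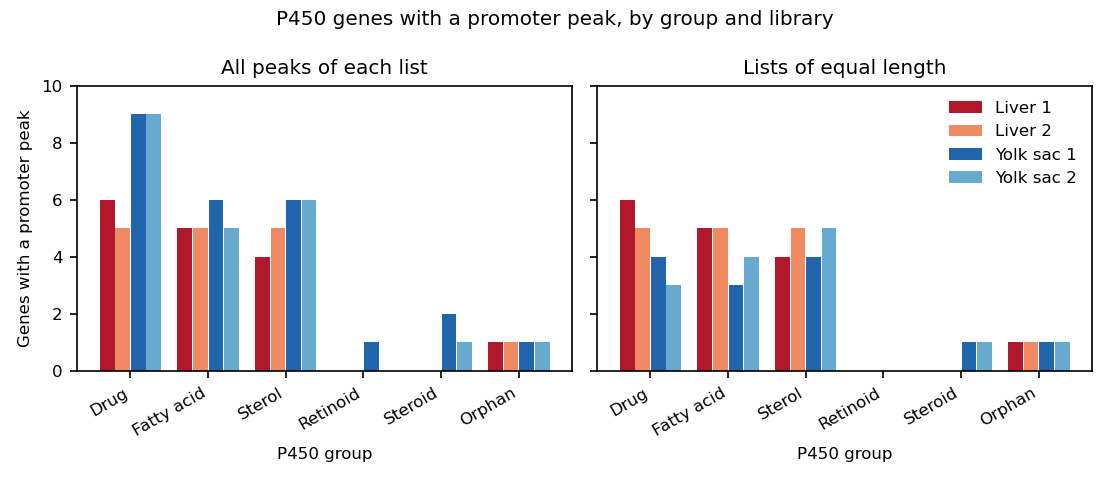
Number of P450 genes with a promoter peak (vertical axis) in each functional group, with 1 bar per library. The left panel uses every peak and the right panel the 24333 highest-scoring peaks of each list. Drug-group genes number 6 and 5 in liver against 9 and 9 in yolk sac on the left, and 6 and 5 against 4 and 3 on the right, and the steroid group has no liver call in either panel.

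Where a P450 gene was called in all 4 libraries, its promoter peak was usually wider in yolk sac. The median width over these 11 genes was 1102 bp in liver replicate 1, 1052 bp in liver replicate 2, 1452 bp in yolk sac replicate 1 and 1352 bp in yolk sac replicate 2 (1077 ± 35.4 and 1402 ± 70.7 bp, SD, n = 2; exact permutation p = 0.333). The difference of 325 bp exceeded the spread within either tissue. Over the 11805 coding genes called in all 4 libraries the medians were 1702, 1552, 1752 and 1602 bp, so the tissues overlapped there. Both yolk sac peaks were wider than both liver peaks at 7 of the 11 genes (63.6%), against a background of 34.5%. The reverse held at 0 of the 11, against 20.9%. The median difference per gene was 300 bp for the P450 genes and 50 bp for all coding genes called in all 4 libraries. With only 11 genes, these are descriptions of the members and not a test of the family.

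The largest difference of means was at Cyp39a1, with 802 and 1202 bp in liver and 1452 and 1652 bp in yolk sac. The gap between the nearest values of the tissues was larger at Cyp4v3, with 1352 and 1352 bp against 1652 and 1652 bp, and at Cyp4f17, with 1052 and 1002 bp against 1352 and 1352 bp. Cyp2j6 measured 202 and 502 bp in liver and 952 and 652 bp in yolk sac. Cyp27a1 measured 1252 and 1052 bp against 1752 and 1402 bp. Cyp4f13 and Cyp20a1 also had no overlap between tissues. Cyp2d22 went the other way in part, with 1952 and 2052 bp in liver and 2052 and 1602 bp in yolk sac. At Cyp4f39 the tissues overlapped, with 602 and 302 bp against 552 and 452 bp. At Cyp2r1 the replicate values met, with 1352 and 1202 bp in liver and 1552 and 1352 bp in yolk sac, and Cyp2u1 overlapped as well.

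**Figure D2:**
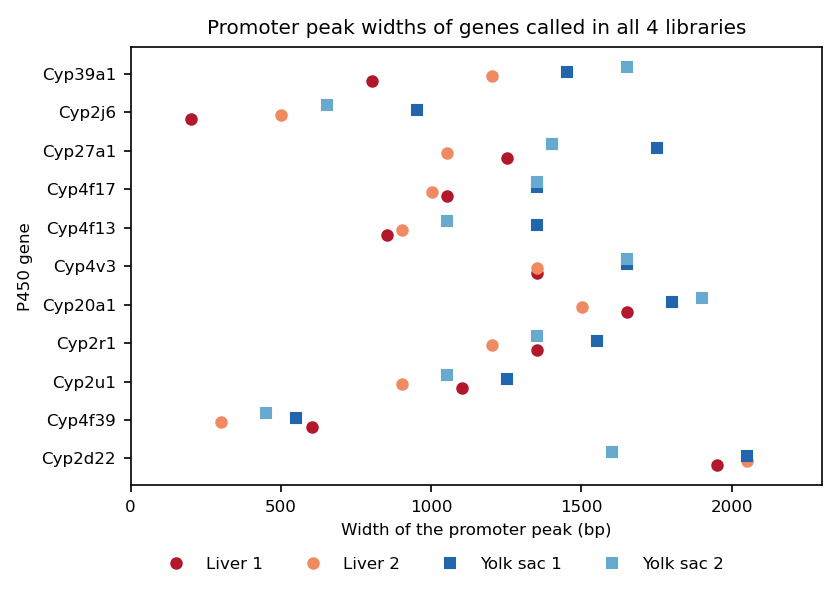
Width in bp of the promoter peak (horizontal axis) of the 11 P450 genes called in all 4 libraries (rows), with circles for the 2 liver and squares for the 2 yolk sac libraries. The squares lie to the right of both circles in 7 of the 11 rows, and in the Cyp2d22 row they do not.

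The median percentile of the same 11 genes was 70.3 and 61.9 in liver and 75.2 and 80.6 in yolk sac (66.1 ± 5.93 and 77.9 ± 3.79, SD, n = 2; exact permutation p = 0.333). Ranks from lists of different length show no change in activity. The same peaks ranked among only the 11805 coding genes called in all 4 libraries gave 52.7 and 39.3 in liver against 55.1 and 64.9 in yolk sac. The percentile difference of 11.8 changed with the libraries and genes used. It was 27.6 without liver replicate 1 and 6.54 without liver replicate 2. Each of these medians covered the 13 genes called in every remaining library, so the gene set changed along with the libraries. The difference was 22.4 with a window of 1000 bp, which added Cyp1a1 for 12 genes.

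Peaks inside P450 genes but away from every annotated start were more numerous in yolk sac, at 5 and 7 in the liver libraries and 17 and 17 in the yolk sac libraries (6 ± 1.41 and 17 ± 0, SD, n = 2; exact permutation p = 0.333). Per Mb of gene this was 1.99 and 2.79 in liver and 6.78 and 6.78 in yolk sac. All coding genes held 5.63, 5.15, 15.8 and 12.7 such peaks per Mb, so P450 genes were below the coding genes in every library. In lists of equal length the P450 counts were 5 and 7 in liver and 5 and 7 in yolk sac, and the difference was 0. Merged across libraries, these peaks formed 22 regions in 17 genes, of which 4 were called in all 4 libraries, 0 were liver-only, 10 were yolk-sac-only and 8 had other combinations. Over all coding genes, 6.41% of 23510 such regions were called in all 4 libraries, 8.92% were liver-only and 37.6% yolk-sac-only, against 18.2%, 0% and 45.5% in the P450 genes. The P450 genes held 11 regions in lists of equal length, of which 3 were called in all 4 libraries, 1 was liver-only and 1 yolk-sac-only, where the coding genes had 6.24%, 23.9% and 19.5%. By midpoint in the full lists, 16 regions lay in introns and 6 in exons.

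The 4 gene body regions shared by all libraries were in Cyp1a1, Cyp2s1, Cyp4f17 and Cyp4f18. Cyp1a1 is the enzyme most strongly induced through the aryl hydrocarbon receptor. Its region (chromosome 9, 57696151 to 57697052, intronic by midpoint) had its edge 611 and 561 bp from the nearest annotated start in liver and 661 and 611 bp in yolk sac, just beyond the window. It stood at percentiles 42.6 and 44.7 in liver and 89.7 and 86.3 in yolk sac. With a window of 1000 bp, Cyp1a1 became the twelfth P450 gene called in all 4 libraries. The regions of Cyp2s1 (chromosome 7, 25802051 to 25803402) and Cyp4f18 (chromosome 8, 71988351 to 71989102) both crossed the 3′ end of the gene. The Cyp2s1 region stood at 41.2 and 82.5 in liver against 99.8 and 95.0 in yolk sac. The Cyp4f18 region, in a gene known for leukotriene breakdown in myeloid cells, stood at 36.6 and 25.6 in liver against 97.7 and 99.7 in yolk sac.

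The 10 yolk-sac-only body regions were 3 in Cyp11a1, 2 in Cyp2c23 and 1 each in Cyp27a1, Cyp2b10, Cyp2s1, Cyp2u1 and Cyp4f13. The highest ranked was in an intron of Cyp2u1 (chromosome 3, 131294801 to 131296352), at percentiles 92.8 and 96.4. Cyp2c23, an epoxygenase of the kidney, had no promoter peak. It held yolk-sac-only regions at 44008801 to 44009152 and at 44024501 to 44025552 on chromosome 19, and a further region at 44021251 to 44022202 that was also called in liver replicate 2. Cyp2b10, a target of the xenobiotic receptor CAR, had an intronic region at 25902101 to 25902952 on chromosome 7, at 36.7 and 26.1. Its promoter had no peak, and neither had the promoter of Nr1i3, the gene for CAR.

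**Figure D3:**
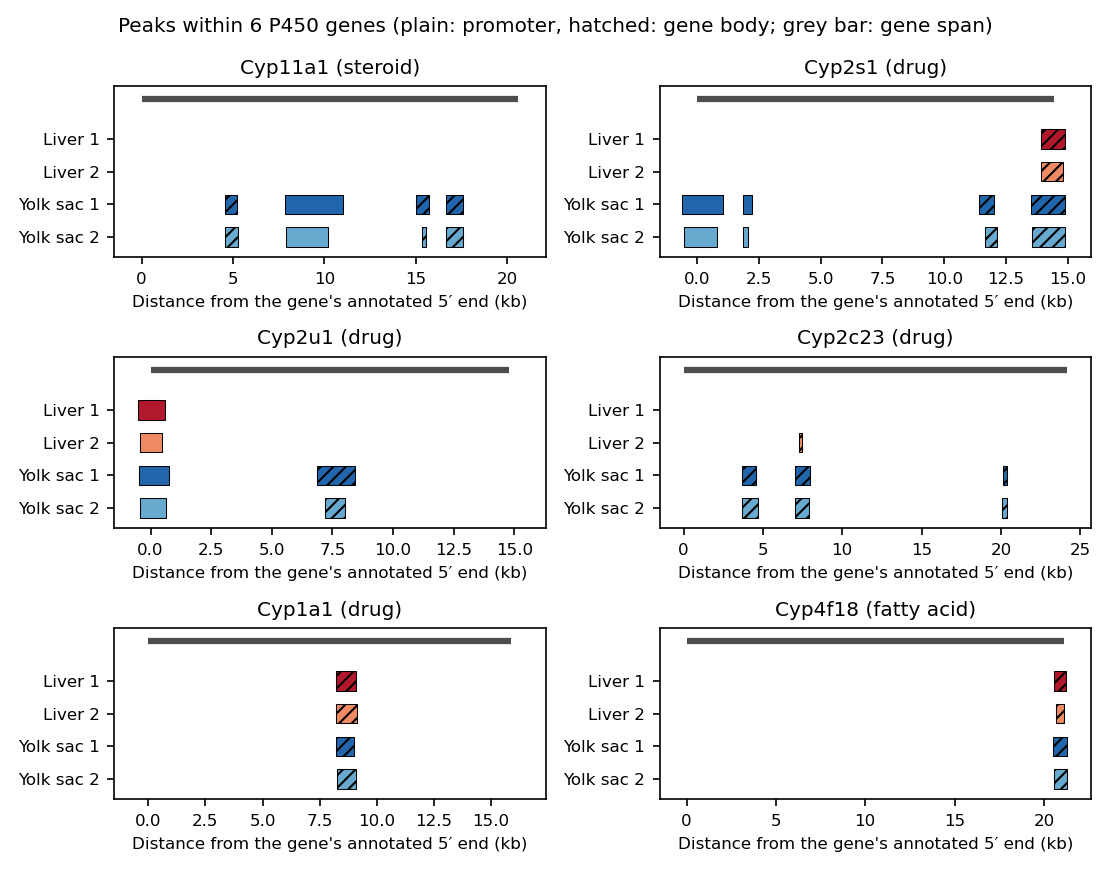
Positions of peaks within 6 P450 genes, by distance in kb from the annotated 5′ end of the gene (horizontal axis), with 1 row per library and the gene span as a grey bar. Plain boxes are promoter peaks and hatched boxes gene body peaks. Cyp11a1 has boxes in the yolk sac rows only, the 3′ region of Cyp2s1 and the regions of Cyp1a1 and Cyp4f18 have boxes in all 4 rows, and the region within Cyp2u1 has boxes in the yolk sac rows.

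Many P450 genes lie in tandem clusters, and the clusters differed in how many peaks they held. Runs of at least 3 members with gaps of at most 500 kb gave 8 clusters, and a peak was counted when it overlapped the span of the cluster by at least 1 bp. The Cyp2c cluster on chromosome 19 spans 1180 kb with 14 genes and held 1 and 0 peaks in liver against 1 and 1 in yolk sac. The Cyp3a cluster on chromosome 5, of 768 kb and 6 genes, held 1 and 1 against 1 and 0, and the Cyp4a, Cyp4b and Cyp4x cluster on chromosome 4 held 1 in each library. The Cyp2j cluster on chromosome 4 held 1 and 2 against 2 and 1. By contrast, the Cyp4f cluster of 495 kb and 8 genes held 9 and 10 peaks in liver against 14 and 12 in yolk sac. The cluster of Cyp2a, Cyp2b, Cyp2f, Cyp2g, Cyp2s and Cyp2t genes on chromosome 7, of 1356 kb and 13 genes, held 4 and 4 against 10 and 12. The interval of 350 kb with Cyp1a1, Cyp1a2 and Cyp11a1 on chromosome 9 held 8 and 9 against 19 and 18, and it also contains genes of other families. At equal list length the Cyp4f cluster held 9 and 10 against 4 and 7, the chromosome 7 cluster 4 and 4 against 5 and 4, and the chromosome 9 interval 8 and 9 against 6 and 9. These counts include peaks of any gene in the interval.

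Near-identical gene copies and promoter composition differed between called and uncalled P450 genes. The median share of 30-base words of a gene's transcripts that also occur in other Cyp-named genes was 0.115% for the 29 genes with a promoter peak and 15.5% for the 65 without. Of the 33 genes with over 20% shared words, a limit set after seeing the values, 4 (12.1%) had a promoter peak, against 25 of the other 61 (41.0%). How reads that match several places were treated is not given in the sources used here, and its part in the missing calls was not tested. The median GC content of the RefSeq promoter windows was 55.3% for genes called in all 4 libraries (7 windows) and 48.3% for genes called in none (60 windows). It was 52.7% for all promoters. The median number of CpG dinucleotides was 11 and 2, against 7. Liver-only genes, yolk-sac-only genes and other combinations had 2, 6 and 8 windows, with median GC contents of 51.5%, 56.8% and 53.7%. Their median CpG numbers were 2.5, 4.5 and 4.5, nearer to the uncalled genes.

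In the full lists, genes that serve or regulate P450 enzymes were called almost alike in both tissues. Of 33 such genes, 29 and 30 were called in the liver libraries and 29 and 29 in the yolk sac libraries (29.5 ± 0.707 and 29 ± 0, SD, n = 2; exact permutation p = 1), and 29 were called in all 4 libraries. Of all coding genes, 53.8% were called in all 4 libraries. In lists of equal length the yolk sac minus liver difference for the 33 genes was -2. The 21 regulators then had 19 and 19 calls in liver and 16 and 19 in yolk sac. Among peaks of the higher-scoring 50% of each list, yolk sac libraries called 5 more of the 33 genes on average. The electron donors Por, Cyb5a, Cyb5b, Cyb5r3, Fdx1 and Fdxr were all called in all 4, and so was Alas1, which encodes the opening enzyme of haem synthesis. Of 21 regulators 19 were called in all 4, among them Nr1i2 (the xenobiotic receptor PXR), Nr1h4 (the bile acid receptor), Nr0b2, Hnf4a, Cebpa and Vdr. The exceptions were Nr1i3 and Nr5a1. Of P450 enzymes whose symbols do not follow the naming rule, Cyp51 and Tbxas1 were called in all 4 libraries and Ptgis in liver replicate 2 only.

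Markers of cell types differed between the tissues alongside the P450 calls. Of 9 erythroid markers, 9 and 9 were called in liver and 1 and 1 in yolk sac. Hepatocyte markers numbered 8 and 7 of 10 in liver and 7 and 7 in yolk sac, where Cps1 and C3 were called in liver alone and Fgb in yolk sac alone. Of 10 yolk sac endoderm markers 8 and 6 were called in liver and 10 and 10 in yolk sac, and Cubn and Amn, which define its absorptive surface, were yolk-sac-only. Mesenchymal markers numbered 6 and 9 of 10 in liver and 10 and 10 in yolk sac. Endothelial markers numbered 4 and 5 of 6 against 6 and 6, and macrophage markers 4 and 4 of 6 against 6 and 5. The erythroid and endothelial counts did not change in lists of equal length. The endoderm counts were then 8 and 6 against 9 and 10, and the hepatocyte counts 8 and 7 against 4 and 4. Mesenchymal counts were 6 and 9 against 9 and 10, and the macrophage counts turned direction, to 4 and 4 against 3 and 3. The part of these cell types in the P450 patterns was not tested, and in whole tissue fewer cells of a type and less transcription per cell cannot be told apart.

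The window decided few calls. Of 79 calls over the 4 libraries, 68 (86.1%) had an annotated start inside the peak itself. The widest gaps just inside the window were at Cyp4f39, at 93 bp in liver replicate 1 and yolk sac replicate 2 and at 243 bp in liver replicate 2. The nearest gaps outside it were those of Cyp1a1, followed by Cyp4a14, at 1059 bp in liver replicate 2, and Cyp11b2, at 1083 bp in the same library.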

How the data were processed

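PRO-seq libraries of liver and yolk sac (2 each) were represented by 1 deposited peak list per library. Per the labels, libraries were made by nuclear run-on on chromatin from frozen tissue. The submitters' processing notes name mm10, Bowtie2 and bedtools. The dREG version, filters and treatment of multiply mapping reads are not given in the sources used here. The score in each deposited list ran from 0.8 to 1.45 at most, has no unit, and was not scaled between libraries. Lists were made per library.

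Peaks were assigned with Python 3.11.15, numpy 2.4.6 and pandas 2.3.3 to start sites of GENCODE vM21 (GRCm38). Between 33.5% and 55.8% of the peaks in a list overlapped a start window, and between 11.1% and 14.6% after a shift of 5 kb. A gene body peak had its midpoint in the gene and overlapped no start window of any gene. With several promoter peaks, the highest-scoring gave the width and percentile. Tissues were compared by exact permutation tests. The calling step returned 200 of 200 patterns planted in simulated lists. Each planted peak was centred within the calling window and no other peaks were added. The result therefore checks the code only and not the calls in the real lists.

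P450 groups followed family numbers: families 1 to 3 except Cyp2r1 (drug), family 4 (fatty acid), and sterol, retinoid and steroid families. All genes called in at least 1 library, all of the sterol, retinoid and steroid groups, and genes with body peaks in both libraries of a tissue were eligible to be named, and other P450 genes were named after their values were seen. Members, panels and lists were chosen with earlier results of these data known. The 30-base word shares, the counts of peaks overlapping clusters, the equal-length values of flanks, clusters, body regions and markers, and the alternatives that leave out shared peaks or rank among genes called in all 4 libraries were added after seeing the data. A single planned motif and 1 regulator gene are not reported here by name. Replicate numbers were not used to pair the libraries in the main tests. Depth is unknown, so no counting interval is given.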

Additional observations from a re-analysis of the deposited data

How the results depend on the processing

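A value is said to have moved when its change was larger than the replicate SD, or, for a count of genes, over 1.5 times. Of 160 recomputed values for 14 results that answer a comparison, 136 did not move, 20 moved and 4 turned direction. The 136 include the values with a replicate block, which could not move because the block changes only the p. In lists of equal length the yolk sac minus liver difference turned from 7.5 to -2.5 for all P450 genes, from 3.5 to -2 for drug genes and from 0.5 to -1.5 for fatty acid genes. It became 0 for sterol genes and 0 for gene body peaks, the yolk-sac-only genes fell to 2, the width difference became 250 bp and the partner genes -2. Cyp2c70 and Cyp3a13 turned to -0.5 of the libraries. In the higher-scoring 50% of each list, liver-only genes fell to 0 and genes called in every library to 6. The differences were then 1.5 for drug genes, 3 for sterol genes, 6 for body peaks and, turned from -0.5, 5 for partner genes. Leaving out shared peaks gave 1 liver-only gene and a drug difference of 4.5. The percentile difference was 22.4 with a window of 1000 bp, 23.8 by midpoint and 22.1 with protein-coding starts. Width and percentile medians were taken over the genes called in every library. These numbered 12 with the 1000 bp window, 10 with protein-coding starts and 9 in lists of equal length. The partner difference was -1.5 with a window of 250 bp and -3.5 by midpoint. The cause of these changes was not tested, beyond the shorter lists themselves.

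Leaving out each replicate in turn gave differences of 6 to 9 for all P450 genes, 3 to 4 for drug genes, 0 to 1 for fatty acid genes, 1 to 2 for sterol genes, 1 to 2 for steroid genes, 0 to 1 for retinoid genes, 10 to 12 for body peaks, 275 to 400 bp for width, 6.54 to 27.6 for percentile and -1 to 0 for partner genes. Liver-only genes then numbered 2 to 3, yolk-sac-only genes 7 to 9 and genes called in every library 11 to 13. The width and percentile ranges cover these changed gene sets as well as the changed libraries. The labels do not say whether libraries with the same replicate number share more than that number. Their deviations were uncorrelated (-0.00716 for calls, 0.00264 for width), which cannot show whether they came from the same embryos. Using the number as a replicate block changes only the p and leaves every difference as it was. For all P450 genes, at 7.5, the exact permutation p was then 0.5, the smallest possible.

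Depth is unknown, so a missing peak does not show a silent gene. Peaks carry no strand, and shared start regions cannot be given to 1 gene.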
